A study of Rattus norvegicus with 9 samples.

Results

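Transcripts of the proteasome, the protease that degrades ubiquitin-tagged proteins, were examined in rat adrenal zona glomerulosa cells stimulated for 2 h. The members were all probe sets whose single gene symbol in the platform annotation began with Psma, Psmb, Psmc, Psmd, Psme or Psmg. The rule found 59 probe sets of 45 genes, out of 20826 probe sets with a single symbol, which cover 14217 genes. It named 43 genes of subunits, assembly factors and activators, and 2 genes by their symbol alone, Psmc3ip, whose product is a meiotic recombination factor, and Psme3ip1, whose product binds an activator. Psmb6 and Psme3 shared their probe sets with other symbols and were not analysed here.

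The cells were freshly isolated from rat adrenal glands by enzymatic and mechanical dispersion, and came from 3 independent preparations. Each preparation was divided into 1 control tube in plain medium, 1 tube with angiotensin II (Ang II, 100 nM) and 1 tube with raised potassium (16 mM), and all tubes were kept at 37 °C. Ang II, a peptide hormone, and potassium are the main stimuli of aldosterone secretion by these cells. Strain, sex and age were not given in the sources used here. RNA of each of the 9 tubes was hybridised to 1 oligonucleotide array, which gave 1 linear signal per probe set, so that each group held 3 arrays.

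The proteasome has a barrel-shaped core of stacked alpha and beta rings, in which a few beta subunits hold the catalytic sites. Caps bind the ends of the barrel. The regulatory cap consists of a base, whose ATPases unfold the substrate and open the gate, and a lid, which binds the base and removes ubiquitin. Transcription of many subunit genes is known to be raised together by the factor Nfe2l1 when proteolysis falls behind, through the antioxidant response element, and many of their promoters hold CCAAT boxes.

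All values below are deposited signals or log2 differences of signal + 16, and each difference is given with its standard error. Of the 59 probe sets, 54 were bright enough to be tested and all 45 genes kept at least 1. The 5 untested probe sets, for Psmb5 (2), Psmc4, Psmd11 and Psme1, belonged to genes with a brighter probe set. For each gene the probe set with the highest mean stands for it, and 36 genes had no other. The trimmed mean of the signals was between 500.167 and 500.19 on every array, while the medians of all probe sets ranged from 128.04 to 172.87. Scaling the arrays to those medians raised the median difference of all tested probe sets from control by 0.12 on the log2 scale for both stimuli, so counts of members above or below 0 are also given relative to the median of all probe sets. Of a list of 13 genes used for the glomerulosa, 12 had a tested probe set, among them Dab2 (11700 ± 285 in control, SD, n = 3). Cyp11b2 had no probe set with a single symbol, and how far the list marks this layer alone was not tested. The fasciculata marker Akr1b7 also gave signal (28312 ± 1030). Listed markers of endothelium, capsule fibroblasts and medulla summed to 24343 to 30455, 12326 to 14465 and 2858 to 3650 in control. The shares of cells of the inner fasciculata layer and of these other types were not tested. In bulk RNA, fewer cells of a type and less RNA per cell cannot be told apart.

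Promoters of 3 of the 5 genes with a probe set that passed the test are shown first. Those of Psmd6 and Psmd12, which also passed, are not shown here. Each run is the 250 bases before the gene's start in RefSeq's assembly GRCr8, 5′ to 3′ on the strand of the gene, for Psmc6 (a base ATPase, chr15:21022064-21022313, plus strand), Psmd11 (a lid subunit, chr10:65932093-65932342, plus strand) and Psma6 (an alpha ring subunit, chr6:78514097-78514346, plus strand).
Psmc6: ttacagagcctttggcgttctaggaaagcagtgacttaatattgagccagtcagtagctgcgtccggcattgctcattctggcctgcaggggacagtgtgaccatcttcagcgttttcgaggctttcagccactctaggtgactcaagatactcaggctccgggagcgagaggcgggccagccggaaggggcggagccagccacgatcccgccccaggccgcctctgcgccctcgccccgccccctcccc
Psmd11: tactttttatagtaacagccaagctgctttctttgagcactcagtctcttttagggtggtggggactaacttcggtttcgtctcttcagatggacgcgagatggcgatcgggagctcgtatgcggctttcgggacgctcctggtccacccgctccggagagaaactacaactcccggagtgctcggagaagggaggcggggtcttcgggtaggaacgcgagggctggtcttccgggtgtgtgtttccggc
Psma6: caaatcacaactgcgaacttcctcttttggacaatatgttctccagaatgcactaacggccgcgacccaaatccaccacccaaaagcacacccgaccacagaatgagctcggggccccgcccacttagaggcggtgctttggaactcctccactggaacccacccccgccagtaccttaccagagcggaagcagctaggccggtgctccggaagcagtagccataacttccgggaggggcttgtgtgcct

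Both strands of these windows were searched for TGACNNNGC, the core of the antioxidant response element, and for CCAAT, the letters of the CCAAT box. These 3 promoters held neither. Of the 43 subunit, assembly and activator genes, 39 had a promoter in the RefSeq table. TGACNNNGC was found in 6 of the 39 (15.4%, Psma3, Psmb2, Psmb5, Psmd1, Psmd9 and Psme4), against 10.2% of all 27457 promoters. CCAAT was found in 18 of the 39 (46.2%), against 34.3% of all promoters. Promoters of Psma3 (chr6:95219499-95219748, plus strand) and Psmb5 (chr15:32047380-32047629, minus strand) are given below as examples that hold TGACNNNGC, and were chosen after their values were seen. Capitals mark both motifs as they read on the gene's strand.
Psma3: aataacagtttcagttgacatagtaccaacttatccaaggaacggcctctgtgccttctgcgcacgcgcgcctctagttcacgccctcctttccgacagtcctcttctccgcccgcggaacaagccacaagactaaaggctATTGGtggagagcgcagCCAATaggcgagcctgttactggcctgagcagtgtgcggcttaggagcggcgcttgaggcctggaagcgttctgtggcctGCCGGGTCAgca
Psmb5: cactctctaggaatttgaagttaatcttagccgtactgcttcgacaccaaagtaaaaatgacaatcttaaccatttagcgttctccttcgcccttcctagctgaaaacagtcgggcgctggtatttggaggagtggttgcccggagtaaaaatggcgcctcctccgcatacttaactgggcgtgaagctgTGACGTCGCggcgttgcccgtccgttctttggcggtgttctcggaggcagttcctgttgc

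In Psma3 the match to TGACNNNGC began 12 bases before the start on the opposite strand, and CCAAT boxes began 109 and 92 bases before it. In Psmb5 the match began 60 bases before the start, and its letters also contain TGACG, letters shared with the cyclic AMP response element, which the search does not tell apart. A match is a description of the letters and was not tested for binding.

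After Ang II nearly all proteasome transcripts lay within a narrow band of control, as did most probe sets with a mean signal over 1000. No gene, represented by its highest probe set, passed the limma test with Benjamini-Hochberg adjustment over all 18625 tested probe sets at 0.05, and 3 of 45 had an unadjusted p under 0.05, all with lower values (Psma7, Psmg4 and Psme3ip1), against 14.5% of all tested probe sets (7.22% higher and 7.24% lower). Of the 54 tested probe sets 1 passed, a probe set of Psmc6 that was higher after Ang II, which is 1.85% of them against 2.2% of all tested probe sets. Of all tested probe sets 310 passed with higher and 99 with lower levels as deposited, and 431 and 33 after scaling to the medians of all probe sets. The 95% interval of the difference lay inside 1.5-fold in either direction for 45 of 45 genes, against 62% of all tested probe sets. Among those with a mean signal over 1000 the shares were 39 of 39 genes and 95% of all probe sets, so the genes were close to bright probe sets in general. The median difference of the 45 genes was -0.00074, against -0.03 for all tested probe sets, and 23 of 45 genes lay below 0, against 55.1%. After scaling to the medians of all probe sets 6 of 45 genes lay below 0 (median 0.12), and after quantile normalization 31 of 45 (median -0.046). Relative to the median of all tested probe sets, 18 of 45 genes lay below it as deposited and after that scaling, and 31 of 45 after quantile normalization. The Ang II arrays lay all below the controls for 2 of 45 genes and all above them for 0, against 7.75% and 7.3% of all tested probe sets. In 9 of 45 genes Ang II was lower in all 3 preparations and in 3 genes higher in all 3, against 19.7% and 15.6%.

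Potassium also gave small differences. Most lay below 0 as deposited, after centring on the tested probe sets and after quantile normalization, and above 0 after scaling to the medians of all probe sets. Psma6 alone passed the test, with a lower level, which is 1 of 54 tested probe sets (1.85%) against 5.36% of all tested probe sets (2.58% lower and 2.78% higher). No member passed with a higher level, and 0 of 45 genes had a higher level with an unadjusted p under 0.05, while 7 of 45 (15.6%) had a lower level at that p, against 10% of all in that direction, 8.77% higher and 18.8% in either (Psma6, Psmb5, Psmd5, Psmd6, Psmd7, Psmd12 and Psmg4). In 7 of 45 genes (15.6%) all potassium arrays lay below all controls, against 9.78% of all tested probe sets, and in 0 genes above them, against 7.84%. Potassium was lower in all 3 preparations for 16 of 45 genes and higher in all 3 for 1 gene, against 20.9% and 17.4%. Of all tested probe sets 518 passed with higher and 480 with lower levels as deposited, 722 and 177 after scaling to the medians of all probe sets, and 612 and 356 after centring on the tested ones. The interval of the difference lay inside 1.5-fold for 45 of 45 genes, against 58.9% of all tested probe sets, and among those with a mean signal over 1000 for 39 of 39 genes, against 92%. The median difference was -0.07 for the 45 genes and -0.02 for all, and 37 of 45 genes lay below 0, against 53.6%. After scaling to the medians of all probe sets, 14 of 45 genes lay below 0 and the median was 0.05, against 33.8% of all. After centring on the tested ones 29 of 45 lay below 0 (median -0.035), against 46.7%. After quantile normalization 38 of 45 did (median -0.095), against 49.3%. Relative to the median of all tested probe sets, 34 of 45 genes lay below it as deposited, 32 of 45 after scaling to the medians and 39 of 45 after quantile normalization. This count was 25 of 45 with no filter on low values, and 26 of 45 without preparation 3 or without control array 3.

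**Figure D1:**
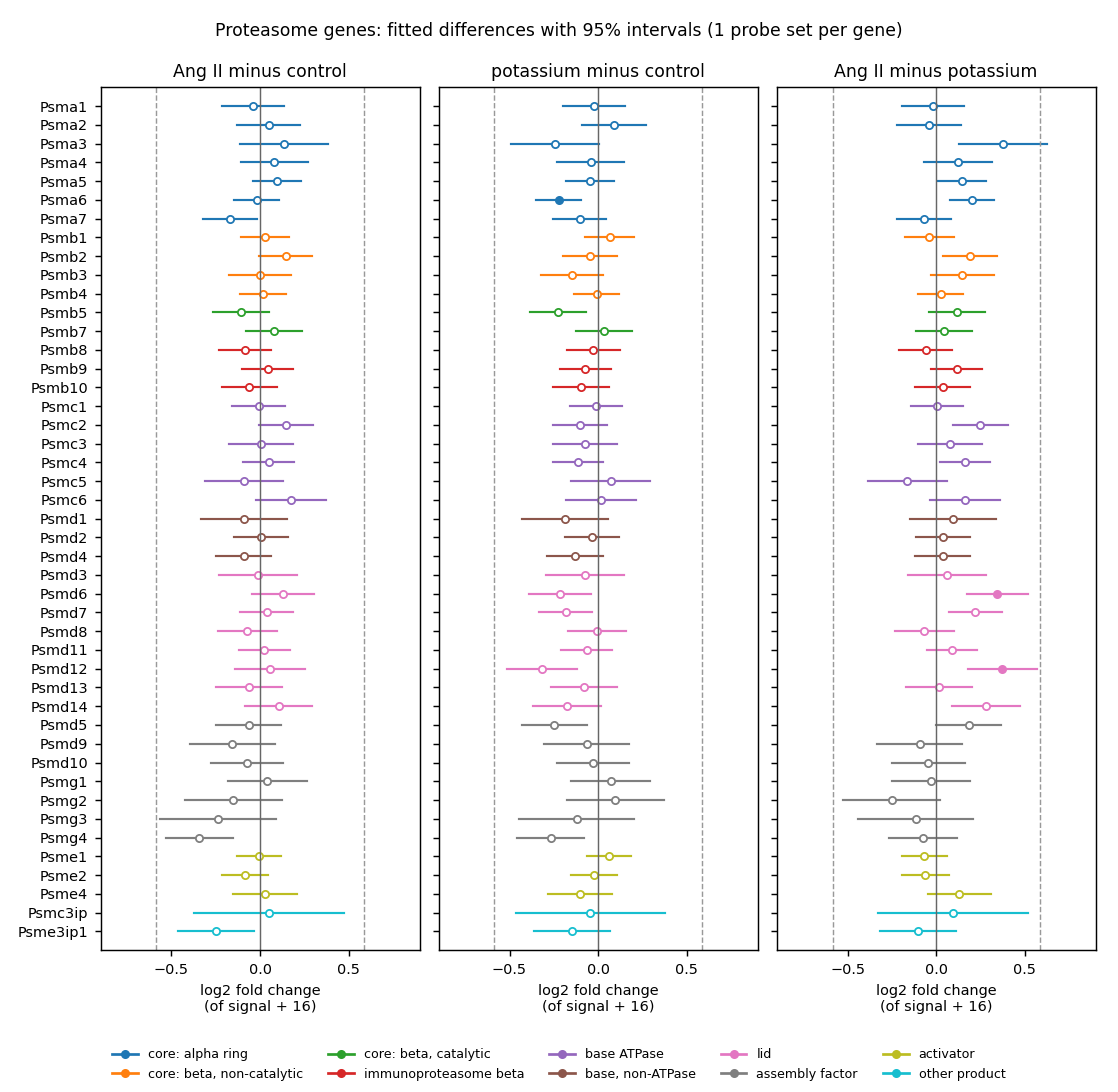
Fitted log2 differences of signal + 16 for the 45 genes, 1 probe set per gene, in 3 comparisons, with points for the estimate, bars for the 95% interval of limma's fit (3 arrays per group) and colours for the role of the product. Filled points passed the adjusted threshold of 0.05, dashed lines stand at 1.5-fold in either direction, and the intervals of all 45, all 45 and 44 of 45 genes lie between those lines, with Psma3 crossing in the comparison of Ang II with potassium.

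The direct comparison of the stimuli held most of the calls, and all were higher after Ang II than after potassium. These were 4 of 54 tested probe sets (7.41%), against 4.79% of all tested probe sets (3.09% higher and 1.7% lower), and they belonged to Psmc6, Psmd6, Psmd11 and Psmd12. By the highest probe set of each gene, 2 of 45 genes passed, Psmd6 and Psmd12. At an unadjusted p under 0.05 there were 11 of 45 genes (24.4%) with higher levels and 0 with lower levels, against 8.51% and 7.69% of all tested probe sets (16.2% in either direction). They were Psma3, Psma5, Psma6, Psmb2, Psmc2, Psmc4, Psmd5, Psmd6, Psmd7, Psmd12 and Psmd14. Ang II was above potassium in all 3 preparations for 18 of 45 genes, against 18.9% of all probe sets, and below it in all 3 for 5 genes, against 19.9%. The Ang II arrays lay all above the potassium arrays for 8 of 45 genes and all below them for 1, Psmg2, against 9.72% and 9.06%. The interval of the difference lay inside 1.5-fold for 44 of 45 genes, against 60.9% of all tested probe sets, and for 38 of 39 genes with a mean signal over 1000, against 92.7%. The median difference was 0.05, against -0.01 for all, and 29 of 45 genes lay above 0, against 47.4%. After each of the 3 other scalings 29 of 45 were counted as well. The 3 comparisons share arrays, so their values are given side by side and were not treated as independent.

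The differences varied between preparations. The median difference between potassium and control over the 45 genes was -0.08, -0.01 and -0.14 in preparations 1, 2 and 3. That between Ang II and control was -0.03, 0.08 and -0.03. Between Ang II and potassium it was 0.05, 0.02 and 0.12. The control tube of preparation 2 had the lowest median of the 3 controls (-0.07 relative to each probe set's mean over 9 arrays), and that of preparation 1 the highest (0.10). Without preparation 3 the median for potassium against control was -0.03, against -0.02 for all tested probe sets. Without the potassium tube of that preparation the median for Ang II against potassium was 0.01, against -0.01 for all.

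**Figure D2:**
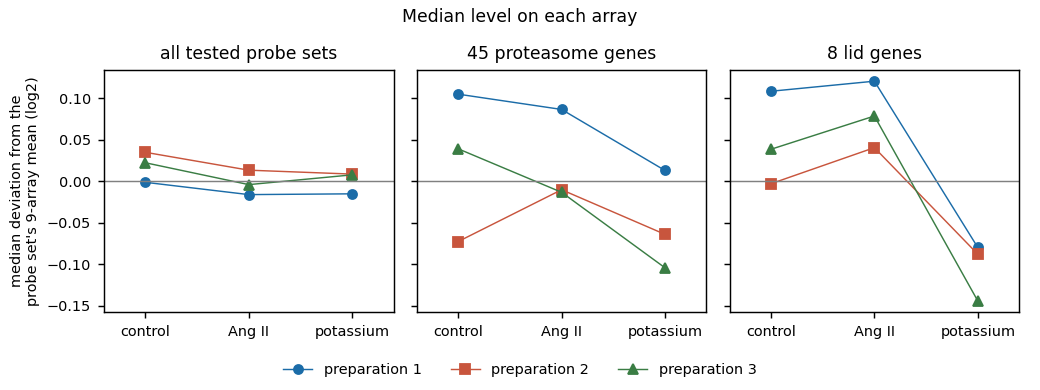
Median deviation of each array from the mean over 9 arrays, in log2 units of signal + 16, for all 18625 tested probe sets, the 45 genes and the 8 lid genes, with 1 point per array and lines joining the arrays of a preparation. As deposited, the 3 potassium arrays have the lowest medians for the lid genes (-0.14 to -0.08), below every control and Ang II array (-0.00312 to 0.12), whereas potassium and the other groups overlap over the 45 genes. Other scalings and other parts of the proteasome are not shown.

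The alpha ring, whose subunits form the outer rings and the gate of the core, was represented by 7 genes. Psma6 (1369930_at), a member of this ring, had signals of 13301, 12243 and 13020 in the control tubes of preparations 1, 2 and 3 (mean 12854 ± 548, SD, n = 3). After Ang II the signals were 13011, 12790 and 12249, and after potassium 11283, 11160 and 10606 (mean 11016 ± 361, SD, n = 3). All 3 potassium arrays lay below all other arrays, while control and Ang II overlapped. Psma6 fell by 0.22 ± 0.06 on the log2 scale with potassium (1.17-fold lower, limma adjusted p = 0.041), and the difference between Ang II and potassium was 0.20 ± 0.06 (adjusted p = 0.067).

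The call of Psma6 was close to the threshold. It was lost with adjusted p of 0.11 without the preparation block, 0.27 without an intensity trend, 0.11 without a filter and 0.16 after centring, and after scaling to the medians of all probe sets the difference was -0.10 with an adjusted p of 0.70. It was also lost without preparation 1 (0.27) or 3 (0.26), without control array 1 (0.14) or 3 (0.17), without Ang II array 1 (0.08) or 3 (0.051), and without potassium array 1 (0.14), 2 (0.10) or 3 (0.18).

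The other 6 alpha ring genes (Psma1, Psma2, Psma3, Psma4, Psma5 and Psma7) did not pass the test in any comparison. Psma3 gave the widest difference between the stimuli, 0.38 ± 0.12 (95% interval 0.13 to 0.63, limma adjusted p = 0.089). Its signals were 1527, 1383 and 1428 after Ang II and 1077, 1189 and 1062 after potassium, which did not overlap, whereas its control signals of 1366, 1635 and 1013 spanned both groups. Over the 7 genes the differences from control ranged from -0.17 to 0.14 with Ang II and from -0.24 to 0.09 with potassium.

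The 4 non-catalytic beta genes Psmb1, Psmb2, Psmb3 and Psmb4, which complete the inner rings, had none that passed. Their differences from control ranged from -0.00074 to 0.14 with Ang II and from -0.15 to 0.07 with potassium. Psmb2 had the widest difference between the stimuli, 0.19 ± 0.07 (limma adjusted p = 0.18).

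The catalytic beta subunits are the ones that cut peptide bonds. Psmb5, which carries the chymotrypsin-like site, had signals of 6104, 5500 and 6551 in control, 5353, 5852 and 5620 after Ang II, and 5442, 4941 and 5116 after potassium. The potassium arrays lay below all control arrays, and the Ang II arrays overlapped both groups. The difference with potassium was -0.23 ± 0.07 and did not pass the test (95% interval -0.38 to -0.07, limma adjusted p = 0.098). Over the 21 alternatives it ranged from -0.29 to -0.10, with an adjusted p of 0.026 after quantile normalization, where it passed, and of up to 0.69 after scaling to the medians of all probe sets. The difference with Ang II was -0.11 ± 0.07 (adjusted p = 0.56).

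Psmb7, which carries the trypsin-like site, had signals of 5732, 4998 and 5887 in control, 5897, 5889 and 5736 after Ang II, and 6376, 5306 and 5356 after potassium. The 3 groups overlapped. Its differences from control were 0.08 ± 0.07 with Ang II (95% interval -0.08 to 0.24) and 0.03 ± 0.07 with potassium (95% interval -0.12 to 0.19), and neither passed the test (limma adjusted p = 0.69 and 0.86).

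In cells exposed to interferon, and in leukocytes, Psmb8, Psmb9 and Psmb10 replace the constitutive catalytic subunits and form the immunoproteasome, which favours peptides for antigen presentation. Psmb8 had signals of 3866, 3239 and 3546 in control, 3669, 3007 and 3367 after Ang II, and 3536, 3369 and 3524 after potassium. Psmb9 had signals of 4725, 3775 and 4251 in control, 4666, 4185 and 4250 after Ang II, and 4514, 3758 and 3839 after potassium. Psmb10 had signals of 2312, 2058 and 2020 in control, 2201, 1949 and 1975 after Ang II, and 2193, 1944 and 1843 after potassium.

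In each of these genes the groups overlapped, and in all of them preparation 1 gave the highest signal within every group. No immunoproteasome gene passed the test. The differences from control ranged from -0.09 to 0.04 with Ang II (lowest limma adjusted p = 0.64) and from -0.10 to -0.03 with potassium (lowest adjusted p = 0.53), and at an unadjusted p under 0.05 there were 0 of 3 genes in each comparison.

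Leukocytes express these subunits strongly, so their markers are given beside them. Of 10 macrophage markers 9 were tested and none passed in any comparison. For potassium against control 3 of 9 had an unadjusted p under 0.05, against 18.8% of all tested probe sets. All 9 markers lay below 0 there (median -0.14), against 53.6% of all, but 5 of 9 after scaling to the medians of all probe sets, against 33.8%. Relative to the median of all tested probe sets, 9 of 9 lay below it with and without that scaling. Their summed signal was 16851 to 22681 in control, 17489 to 22883 after Ang II and 14842 to 21262 after potassium, with Cd163 near background (mean signal 26.4). Of 8 lymphocyte markers with a probe set 4 were tested and none passed, with 0 at an unadjusted p under 0.05 in each comparison. Their summed signal was 748 to 1405 in control, 707 to 1179 after Ang II and 736 to 1127 after potassium. The part of these cells in the differences of Psmb8, Psmb9 and Psmb10 was not tested.

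The base of the regulatory cap contains 6 ATPases, encoded by Psmc1 to Psmc6, which unfold substrates. The dimmest of the 3 probe sets of Psmc6 (1382385_at) gave 404, 321 and 415 in control (mean 380.1 ± 51.3, SD, n = 3), 659, 689 and 521 after Ang II (mean 623 ± 89.6, SD, n = 3), and 454, 395 and 420 after potassium (mean 423.1 ± 29.8, SD, n = 3). All 3 Ang II arrays lay above all other arrays. It rose with Ang II by 0.69 ± 0.14 (1.61-fold, limma adjusted p = 0.018), and was higher after Ang II than after potassium by 0.53 ± 0.14 (1.45-fold, limma adjusted p = 0.044).

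The 2 brighter probe sets of Psmc6 did not pass. They differed from control after Ang II by 0.14 ± 0.09 and 0.17 ± 0.09 (limma adjusted p = 0.50 and 0.42), so the probe sets of this gene disagree in call and in size. Which of them measures the same transcripts was not tested.

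The call of the dim Psmc6 probe set against control was lost without an intensity trend (limma adjusted p = 0.17), without preparation 1 (0.18) or 2 (0.17), and without control array 1 (0.071) or 2 (0.11) or Ang II array 1 (0.093) or 2 (0.17). Its call against potassium was lost in 14 of 21 alternatives, among them no filter (0.067), each scaling but centring (0.073 and 0.068), no preparation block (0.092), and the removal of any preparation (0.051 to 0.29), of control array 1 (0.06), of Ang II array 1 (0.17) or 2 (0.30), or of any potassium array (0.12 to 0.16).

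The other ATPase genes, Psmc1, Psmc2, Psmc3, Psmc4 and Psmc5, did not pass in any comparison. Psmc2 had signals of 8079, 7802 and 8755 in control, 9412, 9438 and 8450 after Ang II, and 8021, 7816 and 7116 after potassium. Its Ang II arrays lay above all potassium arrays and overlapped the controls. The difference between the stimuli was 0.25 ± 0.07 (95% interval 0.10 to 0.40, limma adjusted p = 0.063). The difference between the stimuli lay above 0 for 5 of the 6 ATPase genes, and for Psmc5 it was -0.16 ± 0.10 (adjusted p = 0.50).

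The non-ATPase base subunits, encoded by Psmd1, Psmd2 and Psmd4, form the scaffold of the base and a ubiquitin receptor. None passed the test, and at an unadjusted p under 0.05 there were 0 of 3 in each comparison. Their differences from control ranged from -0.09 to 0.01 with Ang II and from -0.19 to -0.03 with potassium. As deposited, 3 of 3 lay below 0 with potassium (median -0.13) and 3 of 3 above 0 for Ang II against potassium (median 0.04). The shares of all tested probe sets were 53.6% and 47.4%.

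Of the 4 probe sets that passed between the stimuli, 3 belonged to the lid, among them the dimmer probe set of Psmd11. All 8 of the lid genes (Psmd3, Psmd6, Psmd7, Psmd8, Psmd11, Psmd12, Psmd13 and Psmd14) lay below 0 for potassium against control (median -0.13), against 53.6% of all tested probe sets. After scaling to the medians of all probe sets 4 of 8 did (median -0.00714), against 33.8%. Relative to the median of all tested probe sets, 7 of 8 were below it both as deposited and after that scaling. For Ang II against potassium 7 of 8 lay above 0 (median 0.16) as deposited and after each of the 3 other scalings, and without preparation 3 this was 5 of 8 (median 0.10). Of all tested probe sets 47.4% lay above 0 in that comparison as deposited, and 48.9% without preparation 3. By the highest probe set, 2 of 8 passed for Ang II against potassium, and 0 of 8 passed in the other comparisons, where 3 of 8 had an unadjusted p under 0.05 with potassium and 0 of 8 with Ang II. Of all tested probe sets 4.79% passed between the stimuli. At an unadjusted p under 0.05 the shares were 18.8% with potassium and 14.5% with Ang II. In no comparison was the lid itself tested as a group.

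Psmd6 encodes a lid subunit of the horseshoe that holds the lid together. Its signals (1371851_at) were 3746, 3274 and 3560 in control (mean 3527 ± 238, SD, n = 3), 3856, 4261 and 3479 after Ang II (mean 3865 ± 391, SD, n = 3), and 2992, 3162 and 2936 after potassium (mean 3030 ± 118, SD, n = 3). All potassium arrays lay below all other arrays, and control and Ang II overlapped. Psmd6 was higher after Ang II than after potassium by 0.35 ± 0.08 (1.27-fold, limma adjusted p = 0.022). Its differences from control were 0.13 ± 0.08 with Ang II (adjusted p = 0.51) and -0.22 ± 0.08 with potassium (adjusted p = 0.16), neither of which passed. Over the 21 alternatives the latter ranged from -0.32 without control array 2, where it passed (adjusted p = 0.041), to -0.095 after scaling to the medians of all probe sets (adjusted p = 0.73).

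Psmd12, another lid subunit (1392983_at), had signals of 2680, 2408 and 2496 in control (mean 2528 ± 139, SD, n = 3), 2643, 3044 and 2248 after Ang II (mean 2645 ± 398, SD, n = 3), and 2255, 1963 and 1866 after potassium (mean 2028 ± 202, SD, n = 3). The lowest Ang II array and the highest potassium array overlapped, although Ang II was higher in each preparation, and all potassium arrays lay below all controls. It was higher after Ang II than after potassium by 0.37 ± 0.09 (1.30-fold, limma adjusted p = 0.029). The difference between potassium and control was -0.32 ± 0.09 (adjusted p = 0.06). It passed in 3 of 21 alternatives, with the filter at the 60th percentile (0.042), after quantile normalization (0.032) and without Ang II array 2 (0.026), and was -0.20 after scaling to the medians of all probe sets (adjusted p = 0.42).

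Psmd11, whose product joins the lid to the core and base, had 2 tested probe sets. The dimmer probe set (1376069_at) gave 2580, 2870 and 2557 in control, 2699, 3503 and 2878 after Ang II, and 2389, 2558 and 2337 after potassium, with all Ang II arrays above all potassium arrays and controls overlapping both. It was higher after Ang II than after potassium by 0.31 ± 0.07 (1.24-fold, limma adjusted p = 0.027). The brighter probe set differed by 0.09 ± 0.07 (adjusted p = 0.57), so these probe sets also disagree in call.

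The 3 lid calls depended on the processing. Without the preparation block the limma adjusted p was 0.071 for Psmd6, 0.13 for Psmd12 and 0.19 for Psmd11, without an intensity trend 0.24, 0.25 and 0.22, and after scaling to the medians of all probe sets 0.17, 0.13 and 0.21. The Psmd6 call was lost without preparation 1 (0.22) or 2 (0.075), Ang II array 1 (0.093) or 2 (0.18), and any potassium array (0.061 to 0.14). The Psmd12 call was lost without preparation 1 (0.12) or 2 (difference 0.25, adjusted p = 0.21), Ang II array 1 (0.064) or 2 (difference 0.24, adjusted p = 0.23), and any potassium array (0.061 to 0.16). The Psmd11 call was lost without any preparation (0.10 to 0.22), Ang II array 2 (0.19) or 3 (0.093), and any potassium array (0.058 to 0.15).

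**Figure D3:**
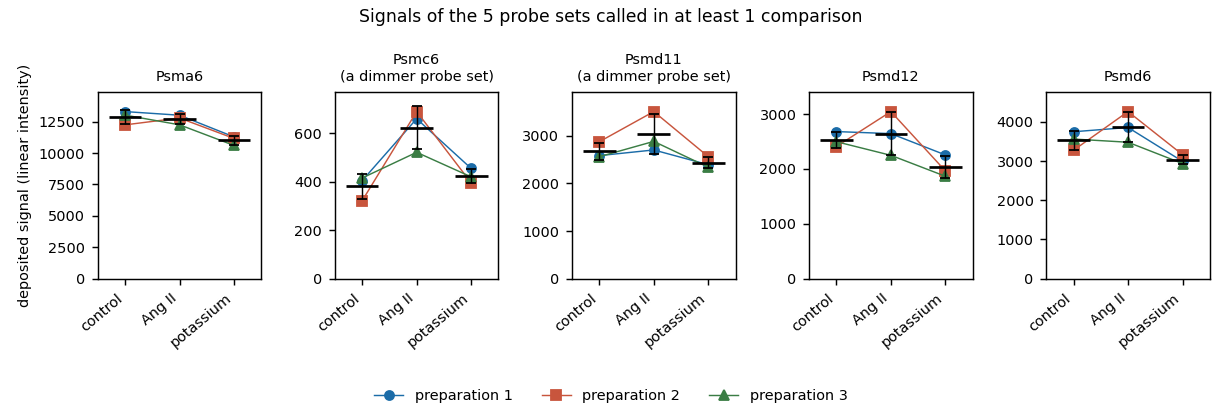
Deposited signals (linear intensity, axes from 0) of the 5 probe sets that passed in at least 1 comparison, by group, with 1 marker per array, lines joining the arrays of a preparation, thick bars for the mean and whiskers for the SD of 3 arrays. The Psmc6 probe set is highest in the 3 Ang II arrays, Psma6 and Psmd6 are lowest in the 3 potassium arrays, and in Psmd12 the Ang II and potassium arrays overlap.

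Psmd14, the deubiquitinase of the lid that removes ubiquitin chains before degradation, had signals of 2290, 2112 and 2093 in control, 2416, 2268 and 2304 after Ang II, and 2291, 1919 and 1594 after potassium. In this brightest probe set the groups overlapped, and the spread was widest after potassium. It did not pass the test, with a difference between the stimuli of 0.28 ± 0.09 (95% interval 0.09 to 0.47, limma adjusted p = 0.10). A dimmer probe set (1394082_at) had all potassium arrays below all other arrays. It gave -0.28 ± 0.11 for potassium against control and 0.31 ± 0.11 between the stimuli (adjusted p = 0.17 and 0.15). The dimmest (1386073_at) had overlapping groups and gave -0.05 ± 0.18 and 0.03 ± 0.18. Psmd7, the subunit that pairs with Psmd14, had signals of 3264, 3008 and 3103 in control, 3262, 2998 and 3370 after Ang II and 2845, 2706 and 2701 after potassium, with all potassium arrays below all other arrays. The difference between the stimuli was 0.22 ± 0.07 (limma adjusted p = 0.099). Its dimmer probe set (1379322_at) had overlapping groups and differed by 0.08 ± 0.11 (adjusted p = 0.83). The other lid genes, Psmd3, Psmd8 and Psmd13, differed between the stimuli by -0.07 to 0.06.

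The assembly factors build the rings and the base and are not part of the finished enzyme. These 7 genes (Psmg1, Psmg2, Psmg3, Psmg4, Psmd5, Psmd9 and Psmd10) had none that passed, with 1 of 7, 2 of 7 and 1 of 7 at an unadjusted p under 0.05 in the comparisons of Ang II with control, potassium with control and Ang II with potassium. The shares of all tested probe sets at that p were 14.5%, 18.8% and 16.2%. The median difference of these genes from control was -0.15 with Ang II, with 6 of 7 below 0, and -0.07 with potassium, with 5 of 7 below 0. Of all tested probe sets 55.1% and 53.6% lay below 0. After scaling to the medians of all probe sets 4 of 7 and 3 of 7 lay below 0, and relative to the median of all tested probe sets 6 of 7 and 5 of 7 were below it both as deposited and scaled. Without control array 2 the median with Ang II was -0.28, and without preparation 1 it was -0.05.

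Psmg4, which helps to order the alpha ring, had signals of 2802, 2490 and 2902 in control, 1841, 2194 and 2447 after Ang II, and 1993, 2379 and 2435 after potassium. All controls lay above all stimulated arrays. Its differences of -0.34 ± 0.09 with Ang II (95% interval -0.53 to -0.15, limma adjusted p = 0.065) and -0.27 ± 0.09 with potassium (95% interval -0.46 to -0.08, adjusted p = 0.10) did not pass, and share the same controls. Psmd5, a chaperone of the base, differed from control by -0.25 ± 0.09 with potassium (adjusted p = 0.12). The brighter probe set of Psmd9 (1368184_at) differed from control by -0.16 ± 0.11 with Ang II (adjusted p = 0.57), with overlapping groups. Its dimmer probe set (1397686_at, mean signal 125) gave -0.57 ± 0.26 (adjusted p = 0.34), with all Ang II arrays below all controls, and did not pass either.

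The activators are alternative caps that open the core without ubiquitin. Psme1 had signals of 11710, 10541 and 10825 in control, 11396, 10990 and 10580 after Ang II, and 11721, 11213 and 11572 after potassium. Psme2, which forms a ring with Psme1, had signals of 7416, 6228 and 6729 in control, 6977, 6140 and 6074 after Ang II, and 7397, 6359 and 6286 after potassium. Both are known to be raised by interferon, and the groups overlapped in both.

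Their differences from control ranged from -0.09 to 0.06 (lowest limma adjusted p = 0.58), and none passed. Psme4, a single-chain activator, had signals of 1600, 1526 and 1709 in control, 1741, 1507 and 1689 after Ang II, and 1410, 1417 and 1686 after potassium, with overlapping groups. Its difference between the stimuli was 0.13 ± 0.08 (adjusted p = 0.50), and its 2 dimmer probe sets gave 0.36 ± 0.13 and 0.45 ± 0.17 (adjusted p = 0.17 and 0.18), which did not pass either.

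The 2 genes that met the rule by symbol alone did not pass in any comparison. Psmc3ip differed from control by 0.05 ± 0.20 with Ang II and -0.04 ± 0.20 with potassium. Psme3ip1 differed by -0.25 ± 0.10 with Ang II (limma adjusted p = 0.26) and -0.15 ± 0.10 with potassium (adjusted p = 0.48).

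Other genes of the pathway were taken from lists. Beside the counts that follow, the shares of all tested probe sets that passed were 2.2% with Ang II (1.66% higher and 0.532% lower), 5.36% with potassium (2.78% and 2.58%) and 4.79% between the stimuli (3.09% and 1.7%), and the lists were not tested as groups. Of 17 tested partners (shuttling factors, deubiquitinases, maturation factors and regulators), 2 rose with Ang II, none passed with potassium and 1 was higher after Ang II than after potassium. At an unadjusted p under 0.05 there were 5 of 17 with Ang II, 1 with potassium and 3 between the stimuli. The shares of all tested probe sets at that p were 14.5%, 18.8% and 16.2%. Zfand2a, which binds the regulatory cap under proteotoxic stress, averaged 3375 ± 237 in control, 5277 ± 706 after Ang II and 3367 ± 193 after potassium (SD, n = 3). All Ang II arrays lay above all other arrays, with differences of 0.64 ± 0.08 from control (limma adjusted p = 0.00031) and 0.64 ± 0.08 from potassium (limma adjusted p = 0.00017). Zfand5, a related proteasome-binding protein, rose with Ang II by 0.29 ± 0.06 (adjusted p = 0.019), a call kept in 10 of 21 alternatives. Nfe2l1 itself did not pass, at -0.20 ± 0.13 with Ang II and -0.34 ± 0.13 with potassium (limma adjusted p = 0.51 and 0.16), and Pomp, the core maturation factor, differed by -0.06 ± 0.06 and -0.05 ± 0.06.

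Of 16 tested genes that supply ubiquitin or carry it to the proteasome, 1 passed. Ubqln2, a shuttle that brings ubiquitinated proteins to the cap, fell by 0.29 ± 0.06 with potassium (limma adjusted p = 0.014, kept in 12 of 21 alternatives). None passed with Ang II or between the stimuli. At an unadjusted p under 0.05 there were 2 of 16 genes with Ang II, 5 with potassium and 0 between the stimuli. The shares of all tested probe sets at that p were 14.5%, 18.8% and 16.2%.

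Genes induced by interferon and genes of class I antigen presentation, which are often regulated together with the immunoproteasome, numbered 18 tested. With Ang II 1 rose and 1 fell (1.66% and 0.532% of all tested probe sets). Potassium lowered 3 and raised 0 (2.58% and 2.78%). After Ang II 3 were higher and 0 lower than after potassium (3.09% and 1.7%). Irf1, a transcription factor of Psmb8 and Psmb9, fell by 0.48 ± 0.07 with Ang II (limma adjusted p = 0.0012) and by 0.67 ± 0.07 with potassium (limma adjusted p = 2.4e-05). Gbp2, an interferon-induced GTPase, rose with Ang II by 0.37 ± 0.06 (adjusted p = 0.0035) and fell with potassium by 0.25 ± 0.06 (adjusted p = 0.025), calls kept in 18 and 7 of 21 alternatives. Tap1, which carries proteasome products into the endoplasmic reticulum and shares a genomic neighbourhood with Psmb9, did not pass, with differences of 0.0029 ± 0.10 after Ang II and -0.04 ± 0.10 after potassium.

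Of Nfe2l2, a relative of Nfe2l1 that acts through the same element, 17 targets were tested. Ang II raised 1 and lowered 1 (1.66% and 0.532% of all tested probe sets). Potassium lowered 2 and raised 0 (2.58% and 2.78%). After Ang II 5 were higher and 0 lower than after potassium (3.09% and 1.7%). Srxn1, which repairs oxidised peroxiredoxins, rose with Ang II by 1.28 ± 0.11 (limma adjusted p = 6.9e-06), while Osgin1 fell by 1.10 ± 0.09 with Ang II and by 1.66 ± 0.09 with potassium (limma adjusted p = 6.9e-06 and 2.5e-08). Of 13 tested heat shock and co-chaperone genes, Ang II raised 4 and lowered 0 (1.66% and 0.532% of all tested probe sets). Potassium raised 1 and lowered 1 (2.78% and 2.58%). After Ang II 4 were higher and 1 lower than after potassium (3.09% and 1.7%). Bag3, a co-chaperone, rose by 0.76 ± 0.07 with potassium and by 0.29 ± 0.07 with Ang II (limma adjusted p = 4e-06 and 0.039), calls kept in 21 and 8 of 21 alternatives. Between the stimuli Bag3 was the 1 gene of 13 below 0 (-0.48 ± 0.07, adjusted p = 0.0005), and 12 lay above 0. Cryab, Dnajb1 and Hspa4 were higher after Ang II than after potassium by 0.47 ± 0.07, 0.32 ± 0.06 and 0.50 ± 0.10 (adjusted p = 0.00061, 0.0073 and 0.0079). With potassium Hspa4 differed from control by -0.58 ± 0.10 (adjusted p = 0.0024).

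The range of a transcript over all 9 arrays was described as well, without groups. Its median was 0.395 log2 units over the 45 genes, against 0.694 over all tested probe sets. All 45 genes stayed within 1 log2 unit from their lowest to their highest array, against 75% of all tested probe sets. With every tested probe set of these genes counted, 51 of 54 (94.4%) did, and the intervals of the difference lay inside 1.5-fold for 51, 53 and 49 of 54 in the comparisons of Ang II with control, potassium with control and Ang II with potassium. Of the 45 genes 39 had a mean signal over 1000, and as given above the share of probe sets within 1.5-fold was higher among bright probe sets, so the part of brightness in these shares was not separated. The range was not compared with that of bright probe sets alone.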

How the data were processed

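The deposited values are linear intensities, 1 per probe set and array, on Affymetrix Rat Genome 230 2.0 arrays. GCOS, the manufacturer's software, is named in the submitters' processing notes with no version, and the background and summary method is not given in the sources used here. Genes were named through the platform annotation (20826 probe sets with 1 symbol, 436 with several, 9780 with none), and promoters came from RefSeq's GRCr8 table.

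Signals were transformed as log2(signal + 16), with no further scaling. Probe sets above the 40th percentile of the mean over 9 arrays were tested, 18625 of 31042 that were not controls. All 9 arrays were fitted together in limma 3.58.1 under R 4.3.3, with group and preparation as fixed terms and moderated variances that follow an intensity trend (eBayes), on 4 residual and 10.72 prior degrees of freedom. P-values were two-sided and Benjamini-Hochberg adjusted over all tested probe sets of a comparison, with a threshold of 0.05. Folds of dim probe sets are understated on this scale, and precision is limited by the number of arrays.

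Arrays are paired by preparation, since per the design text every preparation gave 1 tube per group. Deviations from group means correlated at 0.093 to 0.27 in the 9 pairs of arrays of 1 preparation, and at -0.213 to 0.046 in the 18 other pairs.

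The members, the gene lists and the tests were chosen with earlier results of these data known. Each gene stands for its probe set with the highest mean. Values on every array are given for called members, catalytic subunits, activators and Psmd14, and for a few members near the threshold chosen after their values were seen. Of other lists, named genes came from the 4 with the smallest p in each comparison, while Pomp, Tap1 and the marker genes were named after their values were seen. Alternatives were other pseudocounts (1 and 64), filters, scalings, no block, no intensity trend, and each array or preparation left out.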

Additional observations from a re-analysis of the deposited data

How the results depend on the processing

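Each comparison was refitted under 21 alternatives. The 6 called values kept their direction in all 126 refits and passed in 60. They were picked because they had passed in these data. Several alternatives, such as no block, no trend or no filter, left the estimate unchanged, so the kept direction is no separate evidence. Of 756 refits of the 36 named values that were not called, 7 passed and 39 changed sign. With Ang II against control, where 1 member probe set passed, the count was 2 with the filter at the 60th percentile and 2 after quantile normalization, 0 without an intensity trend, and 0 to 1 with arrays or preparations left out. With potassium against control, where 1 passed, it was 0 without a filter, 0 after scaling to the medians of all probe sets, 0 after centring, 0 without the trend, 2 with the filter at the 60th percentile, 4 after quantile normalization, and 0 to 2 in the leave-one-out fits. With Ang II against potassium, where 4 passed, it was 0 after scaling to the medians, 0 without the trend, and 0 to 7 in the leave-one-out fits, with 7 without control array 2, 1 without Ang II array 1 or 2, and 0 without preparation 1 or 2 or any potassium array. The causes were not tested.

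Without the preparation block the member counts were 1, 0 and 0, and the counts over all probe sets 197, 506 and 442 (409, 998 and 892 with it). Without the trend the counts over all were 38, 258 and 156, and in the leave-one-out fits 145 to 445, 439 to 975 and 278 to 1009. For Ang II against potassium 557 passed after scaling to the medians.

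The median difference of the 45 genes from control became 0.12 for Ang II and 0.049 for potassium after scaling to the medians, while the median of all probe sets moved by 0.12. It ranged from -0.04 to 0.02, from -0.11 to -0.03 and from 0.01 to 0.08 in the leave-one-out fits. The intervals of at least 40 of 45 genes lay inside 1.5-fold in every alternative that tested all 45. Removing arrays leaves fewer samples, and the dimmest probe sets limit what can be seen.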
